A study of Mus musculus with 10 samples.

Results

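Small RNAs were compared between Day 6 embryoid body cells of 2 mouse embryonic stem cell lines, taken in both from outside the gate that collects primordial germ cell-like cells (mPGCLCs). The 4 libraries of this comparison, 2 from SGET non-PGCLC and 2 from E14 non-PGCLC, were chosen by their labels from the 10 libraries of the series. SGET carries a Stella-GFP and an Esg1-tdTomato reporter on a B6CBA/129 background, E14 carries no reporter and is 129/Ola, and both lines are male. Cells of both lines went through the same induction, from naive cells to epiblast-like cells to embryoid bodies with germ cell cytokines. By the study's methods the germ cell gate used the 2 reporters in SGET and antibodies to Ssea1 and Cd61 in E14, although the labels name the reporter gate for every sample. Line, strain background, reporters and gate differ together and cannot be told apart. Each group is 1 line with 2 libraries, called biological duplicates by the series, and p-values measure the spread between such duplicates. BG5 non-PGCLC, from a Blimp1-GFP line on a C57BL/6J/DBA/129 background, and the mPGCLCs of E14 and BG5 are given as further levels.

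MicroRNAs (miRNAs) are RNAs of about the length of a small interfering RNA that are cut from hairpin precursors and guide Argonaute proteins to messenger RNAs. A hairpin can give a 5p and a 3p arm, and the bases that follow the first base of an arm, the seed, largely set which messengers it pairs with. The miR-290 and miR-302 clusters are abundant in mouse pluripotent and early germ cells, let-7 miRNAs accumulate with differentiation, and miR-199 and miR-214 are typical of mesenchyme. Many miRNA genes lie in imprinted loci, among them the large cluster in an intron of Sfmbt2.

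The libraries held 14404300 and 9775392 reads in SGET and 7421061 and 12899662 reads in E14. Levels are given in RPM (reads-per-million) of the total reads of a library, and an arm is the sum of its 18 to 26 nt reads. Reads fell on 763 arms, 590 of them with reads in these 4 libraries, and 562 arms passed the filter on low counts, which used all 10 libraries and kept 53 arms with no read in the 4. Libraries were made with a low-input protocol, and rarer arms rest on few distinct read sequences. Over the tested arms, replicates of a group correlated at 0.827 in SGET and 0.840 in E14 (Pearson's r of log2(RPM + 1) across arms, which are not independent replicates). Libraries of SGET and E14 non-PGCLC correlated at 0.754 to 0.815 with each other, and SGET replicate 1 correlated at 0.846 and 0.847 with the E14 mPGCLC libraries, above its own replicate.

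The summed level of the markers of pluripotent and germ cells, the miR-290 and miR-302 clusters, was 145906 and 161308 RPM in SGET and 135178 and 93596 RPM in E14, against 8199 and 9412 RPM in BG5 non-PGCLC. Cells outside the gate thus held miRNAs of pluripotent cells in both lines. Mesenchymal markers (miR-199, miR-214, miR-143 and miR-145) summed to 2226 and 1783 RPM in SGET and 1685 and 1816 RPM in E14, so that the groups overlapped, against 28680 and 17982 RPM in BG5. The epithelial miR-200 family stood at 3031 and 2693 RPM in SGET and 1114 and 1133 RPM in E14. Endothelial, blood and muscle markers were low in both lines, with the SGET libraries above the E14 libraries: 132 and 83.4 RPM against 12.1 and 48.2 for endothelium, 59.8 and 79.2 against 5.52 and 1.94 for blood, and 268 and 108 against 50.7 and 6.74 for muscle, with no arm of these lists called. Endoderm markers summed to 61.9 and 128 RPM against 22.1 and 39.9, and neural markers to 349 and 258 RPM against 306 and 159. The part of cell composition in the differences below was not tested, and in bulk samples fewer cells of a type and less RNA per cell cannot be told apart.

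Of the 562 arms tested, 26 (4.63%) differed between SGET and E14 at an adjusted p under 0.05, 10 higher in SGET (1.78%) and 16 lower (2.85%), by edgeR's quasi-likelihood test with Benjamini-Hochberg adjustment and TMM scaling. Scaled to total reads instead of TMM, 24 arms were called, 16 higher and 8 lower, 18 of them among the 26. Over the 509 tested arms with reads in the 4 libraries, the median log2 change was -0.11 with TMM and 0.37 with total reads, and no called arm changed direction. List medians below are with TMM and leave out arms with no read in the 4 libraries. Fits with only these 4 libraries or the 6 non-PGCLC libraries called 9 and 8 arms, and the calls lost in them are not repeated for each arm. The 10 arms called higher were called under both scalings, whereas 8 of the 16 called lower were. Because TMM scales up the E14 libraries, a fitted log2 change of an arm that rose is smaller than the ratio of its RPM levels. All 26 had replicates that did not overlap between the groups, as did 204 of all tested arms (36.3%).

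Sequences are shown for the 10 arms that rose and for 11 of the 16 that fell, as the molecules the comparison turns on. Mir351-3p, whose E14 reads began at different bases in the 2 libraries, is among those not shown. Mature sequences are from RefSeq (GRCm38.p6) and run 5′ to 3′, with the seed (bases 2 to 8 of the sequence shown) in capitals. For 3 arms of the Sfmbt2 cluster the most frequent read of the 4 libraries is shown in DNA letters. A read is also shown for Mir324-3p and Mir483-3p, because RefSeq's first 18 bases opened only 23.6% and 0% of Mir324-3p reads in SGET and 33.5% and 34.04% of Mir483-3p reads in E14. That of Mir324-3p is the most frequent read with no mismatch to the hairpin, at 14.1% and 19.3% of the arm's reads in SGET, and that of Mir483-3p is the most frequent of all, at 59.5% and 62.2% in E14. Arms that rose came first, with miR-291a-5p, which shares its seed with miR-291b-5p, for comparison.
miR-291b-5p: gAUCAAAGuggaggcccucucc
miR-291a-5p: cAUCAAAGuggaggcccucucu
Mir324-3p read: aCTGCCCCaggtgctgctgg
miR-182-5p: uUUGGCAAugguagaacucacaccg
miR-183-5p: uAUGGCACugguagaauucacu
miR-200c-3p: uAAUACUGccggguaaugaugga
miR-30a-5p: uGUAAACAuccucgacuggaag
miR-298-5p: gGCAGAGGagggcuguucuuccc
Mir669a group 5p read: aTAGTTGTgtgtggatgtgtgtat
Mir467e-5p read: aTAAGTGTgagcatgtatatgt
Mir466 group 3p read: aTACATACacgcacacataaga

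Arms that fell follow, with the pairs that share a seed next to each other.
let-7d-5p: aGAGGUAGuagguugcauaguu
let-7a-5p: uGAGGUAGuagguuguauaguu
miR-302d-3p: uAAGUGCUuccauguuugagugu
miR-302b-3p: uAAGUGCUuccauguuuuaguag
miR-483-5p: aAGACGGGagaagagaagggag
Mir483-3p read: cACTCCTCccctcccgtcttgt
miR-335-5p: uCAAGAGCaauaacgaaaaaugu
miR-199a-3p: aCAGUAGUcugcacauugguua
miR-503-5p: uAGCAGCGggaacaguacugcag
miR-674-5p: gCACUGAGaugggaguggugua
miR-1193-3p: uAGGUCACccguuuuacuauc

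**Figure D1:**
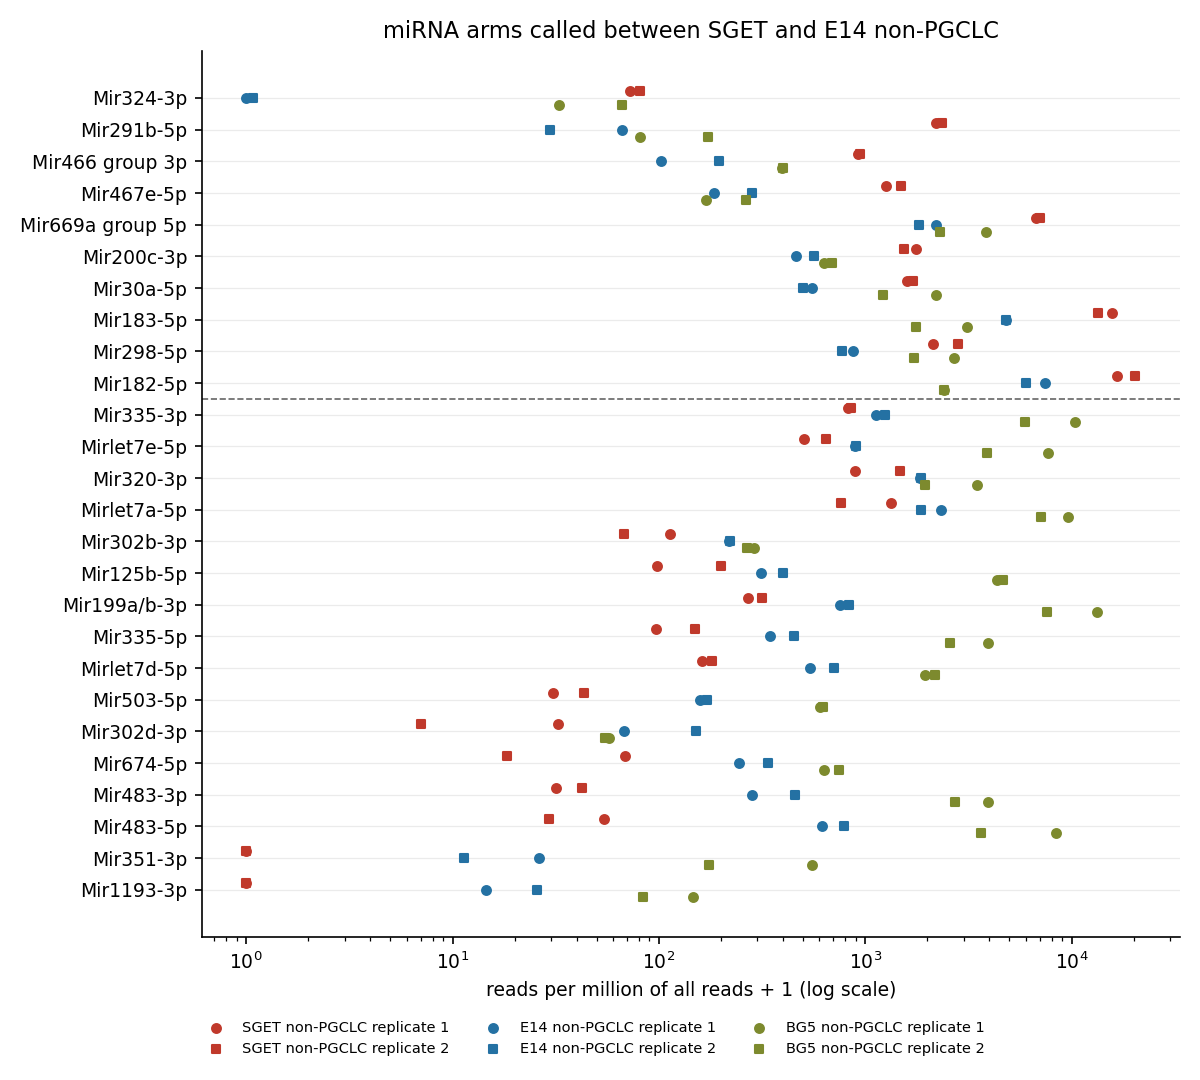
Level of each of the 26 miRNA arms called between SGET and E14 non-PGCLC, as RPM plus 1 on a log axis, with 1 point per library and BG5 non-PGCLC alongside. Arms above the dashed line were higher in SGET and arms below it lower, and for every arm shown the SGET and E14 points do not overlap.

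Mir291b-5p, from a hairpin of the miR-290 cluster (chr7:3219482-3219560, + strand, GRCm38, in no annotated host gene), rose most among well-covered arms. It stood at 2207 and 2363 RPM in SGET and at 65.0 and 28.8 RPM in E14. Both SGET libraries were far above both E14 libraries, by 48.7 times in the means, with a fitted log2 change of 5.12 ± 0.57 (SE, n = 2 and 2, edgeR adjusted p = 2.28e-05), or 5.72 without E14 replicate 1. BG5 non-PGCLC held 80.1 and 172 RPM and the difference from SGET was also called (log2 change 4.58, edgeR adjusted p = 5.74e-06). In that comparison 12 of the 14 tested arms of the miR-290 cluster were called higher in SGET, beside 9.07% of all arms. The median log2 change of the 14 was 4.71. Among mPGCLCs, E14 held 44.1 and 37.5 RPM and BG5 1077 and 570 RPM.

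Its near-identical neighbour Mir291a-5p stood at 3427 and 3315 RPM in SGET and 1793 and 1456 RPM in E14 and was not called (log2 change 0.56, edgeR adjusted p = 0.481). RefSeq's miR-291a-5p and miR-291b-5p differ by C1G and T22C, counted from 1 at the 5′ end with the base of miR-291a-5p first. The full-length miR-291b-5p read was counted 5899 and 6155 times in SGET, 0 and 2 times in E14 non-PGCLC and 0 and 2 times in E14 mPGCLC. In BG5 it was counted 1 and 723 times in non-PGCLC and 2280 and 1144 times in mPGCLC. The full-length miR-291a-5p read was counted 33143 and 18530 times in SGET and 7797 and 10007 times in E14.

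Over all 18 to 26 nt reads with these 17 shared bases after the first, G stood first in 39.5% and 42.5% of reads in SGET and in 45.3% and 57.6% in BG5 non-PGCLC, but in 0.0397% and 0.0396% in E14. The 4 E14 libraries, mPGCLC included, did not exceed 0.0397%. Of the reads counted as Mir291b-5p in E14, 477 of 482 and 365 of 372 began upstream of the annotated first base, whereas 31201 of 31790 and 22874 of 23104 began at it in SGET. The other arm, Mir291b-3p, stood at 85.1 and 62.8 RPM in SGET and 10.5 and 7.05 RPM in E14 and was not called (edgeR adjusted p = 0.592). Whether the base sequence of the hairpin differs between the lines was not tested.

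**Figure D2:**
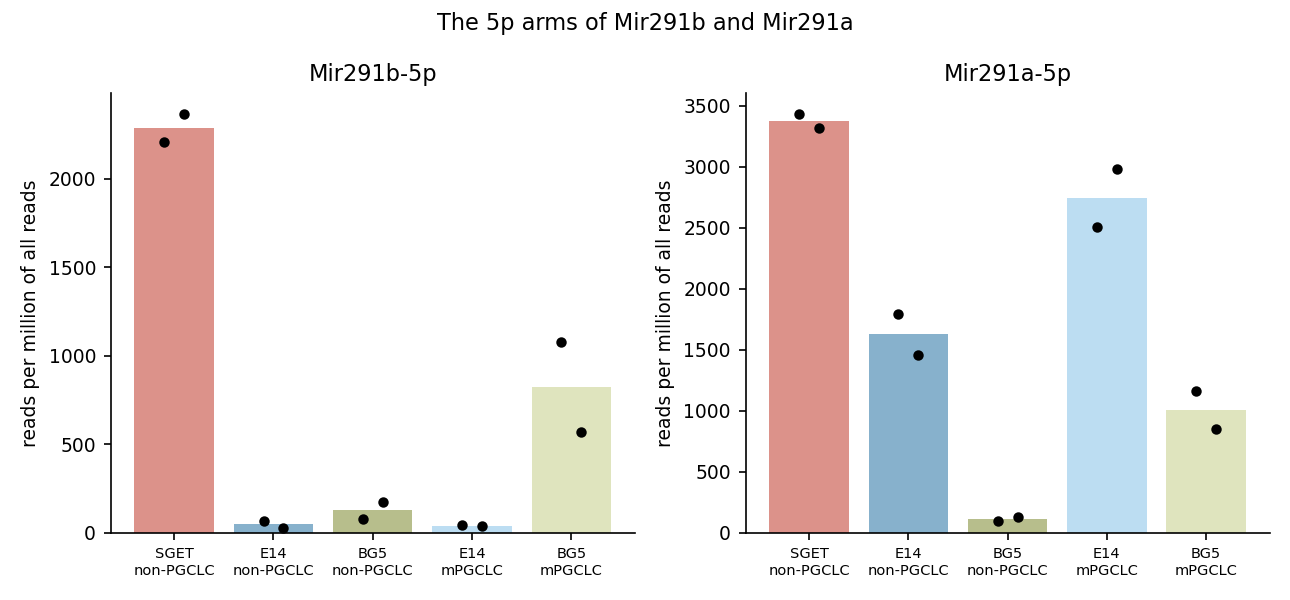
Levels of Mir291b-5p (left) and Mir291a-5p (right) in the 5 groups, in RPM on linear axes, with bars for group means and points for the 2 libraries of each group. Mir291b-5p is low in both E14 groups and in BG5 non-PGCLC, while Mir291a-5p is low only in BG5 non-PGCLC among the 5 groups.

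Mir291b-5p was the 1 arm called among the 14 tested of the miR-290 cluster, beside 4.63% of all arms. The median log2 change of the 14 was -0.12 beside -0.11 over the 509 arms. Mir292-5p, the most abundant arm of SGET, stood at 89092 and 96286 RPM in SGET and 87003 and 56905 RPM in E14 (log2 change -0.13, edgeR adjusted p = 0.861). Mir292-3p was at 13075 and 14154 RPM against 11581 and 9619 RPM (log2 change -0.14, edgeR adjusted p = 0.887). The cluster took 14.6% and 16.1% of all reads in SGET and 13.5% and 9.32% in E14, but as a share of reads in miRNA arms the difference of means was 6.14 percentage points in the other direction. A 2 against 2 comparison of such shares cannot go below an exact two-sided permutation p of 0.3333, so that shares are given as values.

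Of 28 tested arms of the cluster in an intron of Sfmbt2, an imprinted Polycomb gene on chromosome 2, 3 rose in SGET and none fell, beside 1.78% and 2.85% of all arms. The 5p arm shared by 20 hairpins of the Mir669a group, 19 of them in the intron, stood at 6696 and 7019 RPM in SGET and 2199 and 1831 RPM in E14. That is 3.40 times in the means, for a fitted log2 difference of 1.26 ± 0.25 (SE, edgeR adjusted p = 0.00832). Mir467e-5p (chr2:10505721-10505807, + strand) stood at 1264 and 1492 RPM against 184 and 283 RPM, with a log2 change of 2.03 ± 0.46 (edgeR adjusted p = 0.0205). The 3p arm of 13 hairpins of the Mir466 group stood at 925 and 942 RPM against 102 and 194.7 RPM, with a log2 change of 2.12 ± 0.47 (edgeR adjusted p = 0.0181). SGET and E14 libraries did not overlap for any of the 3.

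Many arms of this cluster are near-identical copies, so that reads of the Mir669a and Mir466 groups could not be given to single hairpins. Without E14 replicate 1, the call was lost for Mir467e-5p (edgeR adjusted p = 0.128) and the Mir466 group (edgeR adjusted p = 0.167), and the log2 change of the Mir466 group was 2.75 without E14 replicate 2, while the Mir669a group was past the threshold under every alternative tried. The median log2 change of its 27 arms with reads was 1.26, with 22 above 0, beside 238 of the 509 arms overall. As a whole the cluster took 1.24% and 1.34% of all reads in SGET, 0.396% and 0.341% in E14 and 0.530% and 0.359% in BG5 non-PGCLC. All 3 arms were also higher than in BG5 non-PGCLC (log2 changes 1.73, 3.10 and 1.73, edgeR adjusted p = 5.14e-05, 0.000106 and 0.0133).

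**Figure D3:**
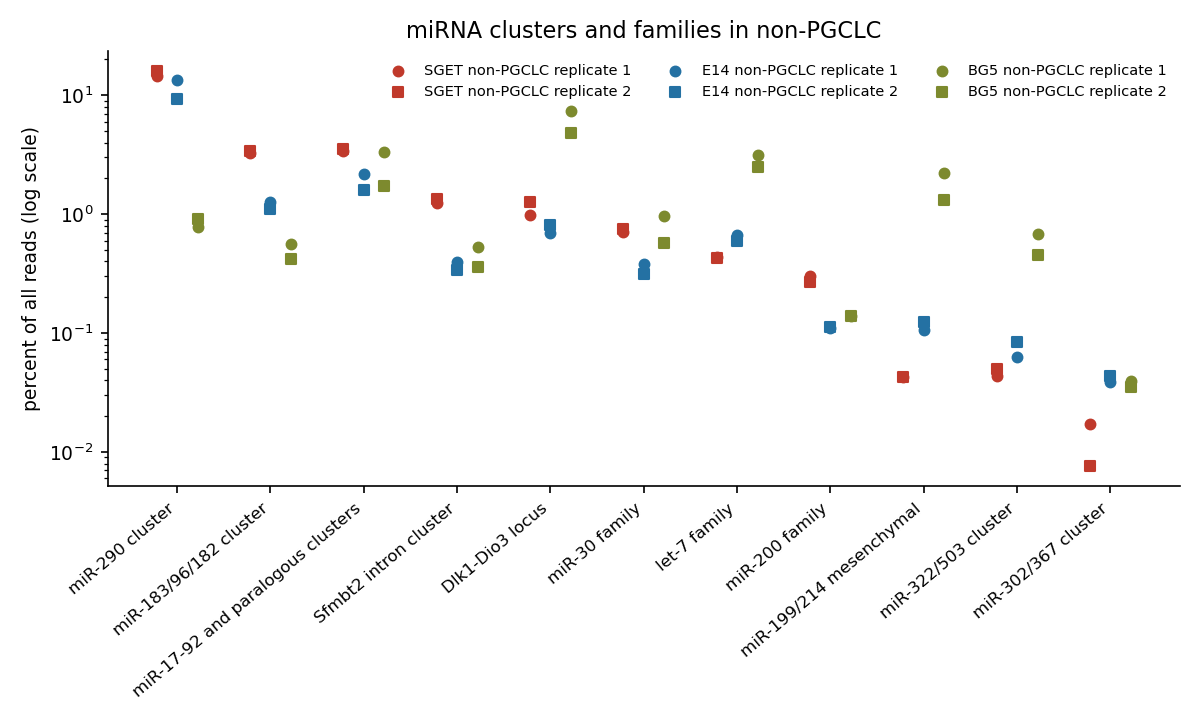
Share of all reads taken by 11 miRNA clusters and families in the 6 non-PGCLC libraries, in percent on a log axis, with 1 point per library. The miR-183, Sfmbt2, miR-200, miR-290 and miR-17-92 groups are higher in both SGET libraries than in the 4 others. The let-7, miR-199, miR-302 and miR-322 groups are lower.

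The cluster of miR-183, miR-96 and miR-182 is transcribed together in sensory, epithelial and pluripotent cells. Mir182-5p (chr6:30165918-30165992, - strand) stood at 16656 and 20361 RPM in SGET and 7460 and 6008 RPM in E14, 2.75 times in the means. Its log2 change was 0.95 ± 0.24 (SE, edgeR adjusted p = 0.0279). Mir183-5p (chr6:30169668-30169737, - strand) stood at 15729 and 13475 RPM against 4827 and 4806 RPM, with a log2 change of 1.10 ± 0.26 (edgeR adjusted p = 0.0233). Both were also above BG5 non-PGCLC, with log2 changes of 3.43 and 3.16 (edgeR adjusted p = 2.01e-08 and 1.33e-07). The third miRNA of the cluster, Mir96-5p, stood at 101 and 217 RPM in SGET and 126 and 97.7 RPM in E14 and was not called (log2 change -0.02, edgeR adjusted p of 1). The call of Mir182-5p was lost with a filter of at least 10 RPM in 2 libraries (edgeR adjusted p = 0.0549) and when arms were summed over 20 to 24 nt only (log2 change 0.54, edgeR adjusted p = 0.384). The median log2 change of the 6 tested arms was -0.67, or -0.38 with the 2 arms that had no read in 1 line set at or left out under the floor of 3 reads per library, and the other 3 arms were 3p arms that were not called.

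Single arms of 3 other groups also rose. Mir200c-3p, of the epithelial miR-200 family, stood at 1754 and 1539 RPM in SGET and 459 and 562 RPM in E14 (log2 change 1.18 ± 0.32, SE, edgeR adjusted p = 0.0397). It was the 1 arm called of 8 tested in its family, beside 1.78% of all arms called higher. The median log2 change of the 8 was 0.82. Mir30a-5p stood at 1586 and 1710 RPM against 552 and 501 RPM (log2 change 1.14 ± 0.28, edgeR adjusted p = 0.0279). It was the 1 arm called of 9 tested in the miR-30 family, again beside 1.78% of all arms. The median log2 change of that family was 0.72. The most abundant arm of that family, Mir30d-5p, stood at 2786 and 3264 RPM against 1396 and 1080 RPM and was not called (log2 change 0.78, edgeR adjusted p = 0.115), but was past the threshold with DESeq2's size factors in edgeR (adjusted p = 0.0465) and with DESeq2 (adjusted p = 0.00124). Mir298-5p, next to the imprinted Nespas and Gnas genes (chr2:174267504-174267585, - strand), stood at 2123 and 2812 RPM against 875 and 772 RPM (log2 change 1.07 ± 0.26, edgeR adjusted p = 0.0248). SGET lay above E14 in both libraries for each of the 3 called arms. These calls were close to the threshold. That of Mir200c-3p was lost without SGET replicate 1 or either E14 replicate (edgeR adjusted p = 0.181, 0.382 and 0.0538), and over 20 to 24 nt only (edgeR adjusted p = 0.0521). That of Mir30a-5p was lost without the same libraries (edgeR adjusted p = 0.0897, 0.189 and 0.158), and that of Mir298-5p without SGET replicate 2 or either E14 replicate (edgeR adjusted p = 0.103, 0.170 and 0.169).

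Mir324-3p (chr11:70012043-70012131, + strand, in an exon of Dvl2 by the annotation) had reads in SGET and almost none in E14 non-PGCLC. It was at 71.2 and 80.1 RPM in SGET from 8 and 5 distinct sequences, at 0 and 0.0775 RPM in E14, the latter 1 read, at 31.8 and 65.6 RPM in BG5 non-PGCLC, and at 12.2 and 25.7 RPM in the mPGCLCs of E14. The ratio of pooled reads was 1519, with an exact 95% interval from 272 to 60048 that covers counting error only. The call (edgeR adjusted p = 0.0357) was lost without either E14 replicate (edgeR adjusted p = 0.137 without replicate 1 and 0.0530 without replicate 2). It was also lost with exact hairpin matches only (edgeR adjusted p = 0.572), with libraries thinned to equal depth (edgeR adjusted p = 0.0570) and with the replicate block (edgeR adjusted p = 0.0530).

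Among the arms that fell, both arms of Mir483 had the largest fitted changes after Mir1193-3p and Mir351-3p, which had no read in SGET. Mir483 lies in an intron of Igf2, an imprinted growth factor gene (chr7:142654924-142654996, - strand). Mir483-5p stood at 53.5 and 28.2 RPM in SGET and 613 and 790 RPM in E14, and Mir483-3p at 30.8 and 41.3 RPM against 282 and 454 RPM. E14 was higher by 17.2 and 10.2 times in the means, with log2 changes of -4.59 ± 0.45 and -3.89 ± 0.61 (SE, edgeR adjusted p = 7.47e-06 and 0.00142). For the 5p arm the change was -5.26 without SGET replicate 1 and -4.00 without SGET replicate 2. Levels in BG5 non-PGCLC were higher again, at 8363 and 3626 RPM for the 5p arm and 3918 and 2737 RPM for the 3p arm. The SGET reads of the 5p arm came from 6 and 2 distinct sequences, those of E14 from 28 and 47.

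Mir335, in an intron of the imprinted Mest gene (chr6:30741299-30741396, + strand), was also lower. Its 5p arm stood at 95.4 and 148 RPM in SGET and 346 and 450 RPM in E14 (log2 change -2.25 ± 0.37, SE, edgeR adjusted p = 0.00209). The more abundant 3p arm was at 821 and 849 RPM against 1129 and 1252 RPM (log2 change -1.02 ± 0.25, edgeR adjusted p = 0.0278). The 5p arm made up 10.4% and 14.8% of the reads of both arms in SGET and 23.5% and 26.4% in E14. The call of the 3p arm was lost under total-read scaling (edgeR adjusted p = 0.492) and without E14 replicate 2, SGET replicate 1 or SGET replicate 2 (edgeR adjusted p = 0.199, 0.0544 and 0.395). Of 10 tested arms from imprinted genes outside the Dlk1-Dio3 and Sfmbt2 loci, 4 fell, all from Mir483 and Mir335, and 1 rose, Mir298-5p, beside 4.63% of all arms called. The median log2 change of the 8 with reads was -1.64.

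In the Dlk1-Dio3 locus, which holds a large imprinted miRNA cluster, 1 of 87 tested arms was called, beside 4.63% of all arms. The median log2 change of the 77 with reads was 0.02. Mir1193-3p (chr12:109715671-109715791, + strand) had no read in SGET and stood at 13.5 and 24.7 RPM in E14. With SGET set at a floor of 3 reads per library, the arm was 74.2-fold lower there, a value that depends on the floor. It rested on 3 and 6 distinct sequences in E14, and the call (edgeR adjusted p = 0.0303) was lost without SGET replicate 2 (edgeR adjusted p = 0.0769) and with exact hairpin matches only (edgeR adjusted p = 0.0530). The most abundant arm of the locus, Mir541-5p, stood at 1184 and 889 RPM in SGET and 965 and 874 RPM in E14 (log2 change -0.32, edgeR adjusted p = 0.581). The locus as a whole took 0.976% and 1.28% of reads in SGET, 0.694% and 0.818% in E14 and 7.40% and 4.83% in BG5 non-PGCLC, but as a share of reads in miRNA arms the difference of means was -0.20 percentage points.

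Of the let-7 family, whose members accumulate as cells differentiate, 3 of 13 tested arms fell and none rose, beside 2.85% and 1.78% of all arms. The median log2 change of the 12 with reads was -1.08. Mirlet7d-5p stood at 162 and 180 RPM in SGET and 538 and 706 RPM in E14 (log2 change -2.39 ± 0.44, SE, edgeR adjusted p = 0.00498). Mirlet7a-5p, which 2 hairpins give, was at 1335 and 765 RPM against 2326 and 1860 RPM (log2 change -1.47 ± 0.32, edgeR adjusted p = 0.0162, or -2.06 without SGET replicate 1). Mirlet7e-5p, named here because it completes the count, was at 505 and 645 RPM against 894 and 906 RPM (log2 change -1.17 ± 0.28, edgeR adjusted p = 0.0248). E14 was above SGET in both libraries for each. Under total-read scaling the calls of Mirlet7a-5p and Mirlet7e-5p were lost (edgeR adjusted p = 0.173 and 0.492). Without SGET replicate 2 both were lost as well (edgeR adjusted p = 0.169 and 0.165), and Mirlet7e-5p also without SGET replicate 1 or E14 replicate 2 (edgeR adjusted p = 0.0943 and 0.0998).

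Mir199-3p, a mesenchymal miRNA that 3 hairpins give, stood at 270 and 316 RPM in SGET and 756 and 831 RPM in E14, against 13281 and 7569 RPM in BG5 non-PGCLC. Its log2 change between SGET and E14 was -1.96 ± 0.37 (SE, edgeR adjusted p = 0.00548). It was the 1 arm called of 5 tested from miR-199 and miR-214, beside 2.85% of all arms called lower. The median log2 change of the 5 was -1.96, and none was above 0. Mir143-3p, also found in mesenchyme and smooth muscle, stood at 1779 and 1358 RPM in SGET and 611 and 550.01 RPM in E14 and was not called (log2 change 0.94, edgeR adjusted p = 0.116), but was past the threshold under total-read scaling (log2 change 1.43, edgeR adjusted p = 0.0462), without SGET replicate 2 (edgeR adjusted p = 0.0212) and with DESeq2 (adjusted p = 0.0185). Mir125b-5p, also named to complete a count, fell from 311 and 398 RPM in E14 to 96.8 and 199 RPM in SGET (log2 change -1.81 ± 0.47, edgeR adjusted p = 0.0317), a call lost under total-read scaling (edgeR adjusted p = 0.137), with DESeq2's size factors in edgeR (adjusted p = 0.0569) and with a filter of at least 10 RPM in 2 libraries (edgeR adjusted p = 0.0549). It was the 1 arm called of 8 tested in the family of miR-99, miR-100 and miR-125, beside 2.85% of all arms called lower, and the median log2 change of the 8 was -0.02. The most abundant arm of the family, Mir125a-5p, stood at 1414 and 2122 RPM in SGET and 1497 and 1270 RPM in E14 (log2 change -0.17, edgeR adjusted p = 0.830).

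The cluster of miR-302 and miR-367 is a marker of primed pluripotent cells. Mir302b-3p stood at 112 and 66.7 RPM in SGET and 218 and 221 RPM in E14 (log2 change -1.78 ± 0.40, SE, edgeR adjusted p = 0.0181), and Mir302d-3p at 31.6 and 6.04 RPM against 66.6 and 150 RPM (log2 change -2.99 ± 0.72, edgeR adjusted p = 0.0248). They were the 2 called of 8 tested arms, beside 2.85% of all arms called lower, and the median log2 change of the 7 with reads was -2.12, with none above 0. The log2 change of Mir302d-3p was -4.80 without SGET replicate 1, -2.09 without SGET replicate 2 and -2.20 without E14 replicate 2. Neither was past the threshold against BG5 non-PGCLC (edgeR adjusted p = 0.0612 and 0.338). Both calls were lost under total-read scaling (edgeR adjusted p = 0.112 and 0.0585) and without SGET replicate 2 (edgeR adjusted p = 0.168 and 0.0891).

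Of the X-linked cluster of miR-322 and miR-503, which is expressed in differentiating mesoderm, 2 of 10 tested arms fell, beside 2.85% of all arms. The median log2 change of the 9 with reads was -1.44, or -1.23 with the 2 arms that had no read in 1 line set at or left out under the floor of 3 reads per library. Mir503-5p stood at 29.6 and 42.4 RPM in SGET and 157 and 170 RPM in E14 (log2 change -2.71 ± 0.72, SE, edgeR adjusted p = 0.0357). The call was lost under total-read scaling (edgeR adjusted p = 0.112) and without E14 replicate 2, SGET replicate 1 or SGET replicate 2 (edgeR adjusted p = 0.0981, 0.0975 and 0.125). It was also lost with exact hairpin matches only (edgeR adjusted p = 0.0632) and over 20 to 24 nt only (edgeR adjusted p = 0.257). Mir351-3p had no read in SGET and 25.3 and 10.3 RPM in E14, from 1 and 2 distinct sequences (edgeR adjusted p = 0.0286). That call was lost with a filter of at least 10 RPM in 2 libraries (edgeR adjusted p = 0.0631) and with exact hairpin matches only (edgeR adjusted p = 0.104). The far more abundant Mir351-5p was at 215 and 242 RPM against 288 and 360 RPM and was not called (edgeR adjusted p = 0.230).

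Mir674-5p and Mir320-3p fell outside these groups. Mir674-5p stood at 67.8 and 17.3 RPM in SGET and 244 and 337 RPM in E14 (log2 change -3.23 ± 0.69, SE, edgeR adjusted p = 0.0162). The change was -4.70 without SGET replicate 1 and -2.39 without SGET replicate 2. Mir320-3p stood at 895 and 1476 RPM against 1850 and 1858 RPM (log2 change -1.18 ± 0.28, edgeR adjusted p = 0.0248), a call lost under total-read scaling (edgeR adjusted p = 0.492) and without E14 replicate 2 or SGET replicate 1 (edgeR adjusted p = 0.0542 and 0.137).

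**Figure D4:**
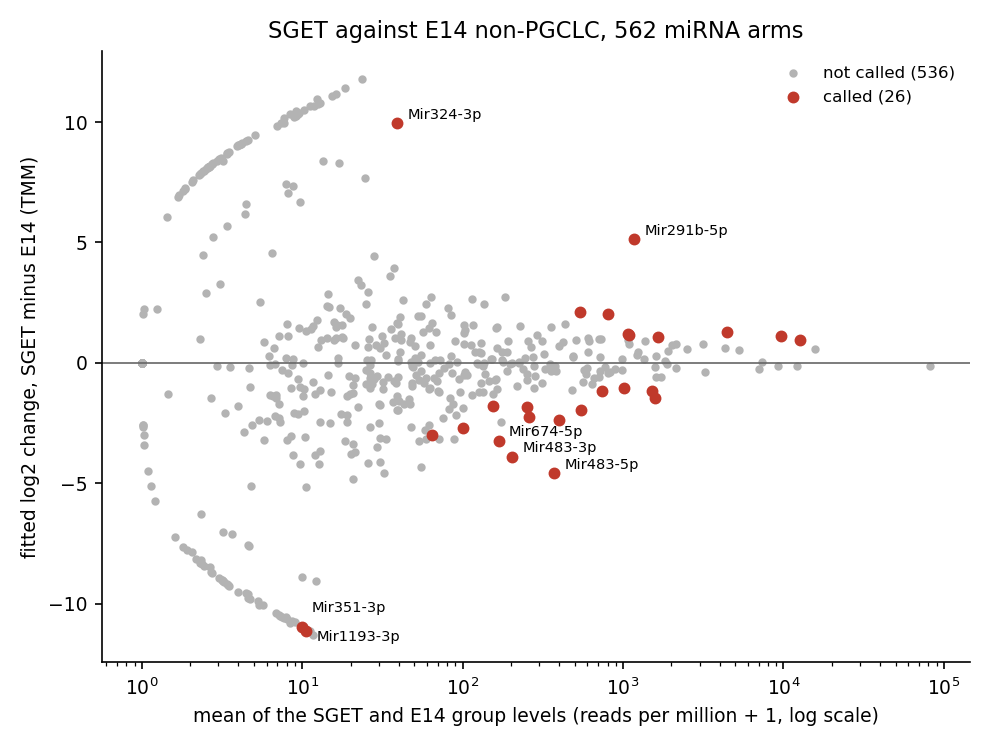
Fitted log2 change of SGET minus E14 non-PGCLC (vertical axis, TMM scaling) against the mean level of the 2 groups (horizontal axis, RPM plus 1, log scale) for the 562 arms tested, with the 26 called arms in red. Beyond a log2 change of about 5 in either direction lie mostly arms with few or no reads in 1 group, which were not called.

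The remaining lists held no called arm. The miR-17-92 and paralogous clusters, which promote proliferation, had 24 arms tested with a median log2 change of -0.38. Their leading arm, Mir92-1-3p, stood at 21299.5 and 21484 RPM in SGET and 12091.5 and 8449.8 RPM in E14 (log2 change 0.56, edgeR adjusted p = 0.192), and was past the threshold without E14 replicate 1 (edgeR adjusted p = 0.0494), without SGET replicate 2 (edgeR adjusted p = 0.0334), with no filter on low counts (edgeR adjusted p = 0.0289), with exact hairpin matches only (edgeR adjusted p = 0.0412) and with DESeq2 (adjusted p = 0.00417). The X-linked cluster between Slitrk2 and Fmr1, known from germ cells, had 20 arms tested, 19 with reads and a median log2 change of 1.59, and took 0.130% and 0.104% of reads in SGET, 0.0468% and 0.0289% in E14 and 0.00130% and 0.00342% in BG5 non-PGCLC. Its leading arm, the 3p arm of the Mir465 group, was at 333 and 324 RPM in SGET and 62.8 and 8.91 RPM in E14, and was not called (log2 change 2.75, edgeR adjusted p = 0.146) except without E14 replicate 1 (log2 change 4.62, edgeR adjusted p = 0.0216) and with DESeq2 (adjusted p = 0.0131). Its log2 change was 1.95 without E14 replicate 2.

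The endoderm and neural lists had 5 and 8 arms tested, 5 and 7 of them with reads, with median log2 changes of 2.46 and -1.36. Mir375-3p stood at 35.6 and 50.4 RPM in SGET and 0.135 and 10.2 RPM in E14 (edgeR adjusted p = 0.515, or 0.0297 without E14 replicate 2). Mir218-5p, from 2 hairpins, stood at 216 and 258 RPM against 55.4 and 8.605 RPM (edgeR adjusted p = 0.0966). It was past the threshold without E14 replicate 1, SGET replicate 1 or SGET replicate 2 (edgeR adjusted p = 0.00484, 0.0408 and 0.0452), under total-read scaling (edgeR adjusted p = 0.0462), with the replicate block (edgeR adjusted p = 0.0327) and with DESeq2 (adjusted p = 0.00693). Also without a called arm were the lists of Hox-cluster, muscle, endothelial and blood miRNAs and the groups around miR-15 and miR-16, miR-130 and miR-148, and miR-23 and miR-24.

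The most abundant arms of these lists were not called. Mir16-5p stood at 812 and 671 RPM in SGET and 267 and 273 RPM in E14 (log2 change 0.96, edgeR adjusted p = 0.192), and was past the threshold with DESeq2 (adjusted p = 0.00566). Mir24-3p stood at 1185 and 1904 RPM against 703 and 537 RPM (edgeR adjusted p = 0.268), and Mir130b-5p at 733 and 366.9 RPM against 285 and 205 RPM (edgeR adjusted p = 0.514). The endothelial and blood list was led by Mir155-5p, at 53.6 and 84.6 RPM against 46.5 and 13.3 RPM (edgeR adjusted p = 0.842), and the Hox-cluster list by Mir10b-5p, at 55.4 and 77.6 RPM against 29.4 and 21.6 RPM (edgeR adjusted p = 0.865).

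Against BG5 non-PGCLC, SGET differed in 105 of 562 arms (18.7%), 51 higher (9.07%) and 54 lower (9.61%), by the same edgeR fit. Of the 26 arms called against E14, 20 were also past the threshold in the same direction against BG5, 7 higher in SGET and 13 lower. The 2 comparisons share the SGET libraries. The 7 were Mir291b-5p, Mir182-5p, Mir183-5p, Mir200c-3p and the 3 arms of the Sfmbt2 cluster. Mir324-3p, Mir30a-5p and Mir298-5p were not past it, nor were Mir302b-3p, Mir302d-3p and Mir320-3p. Mir291b-5p did not stand alone in its cluster against BG5. There 12 of the 14 tested miR-290 arms were called higher in SGET, beside 9.07% of all arms, with a median log2 change of 4.71.

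By RNA class, reads in miRNA arms made up 29.9% and 32.5% of all reads in SGET, 23.02% and 17.9% in E14 and 32.5% and 21.6% in BG5 non-PGCLC. The means differed by 10.7 percentage points, but by 0.472 points when each distinct sequence was counted once. Reads of 20 to 25 nt made up 42.4% and 45.9% in SGET and 36.1% and 31.5% in E14, and reads of 15 to 19 nt 51.2% and 42.8% against 54.7% and 59.4%. With each distinct sequence counted once, the difference of means for 20 to 25 nt was 2.51 points instead of 10.4. Small nucleolar RNAs (snoRNAs, guides of RNA modification) of all kinds took 2.02% and 2.40% against 1.58% and 1.76%, but C/D box and H/ACA box snoRNAs each overlapped between the lines. Fragments of ribosomal, mitochondrial, small nuclear and Y RNAs overlapped between the lines. Reads of 26 to 29 nt with a 5′ U, the class in which piRNAs would fall, took 1.01% and 1.44% in SGET and 1.27% and 1.72% in E14. Without the reads of 1 GC-rich fragment that was abundant in E14, the class took 1.01% and 1.43% in SGET and 0.971% and 1.003% in E14, so that the order of the means turned. The fragment was chosen after the data were seen. Its removal was bound to lower the E14 share most, so the turned order is no separate result.

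**Figure D5:**
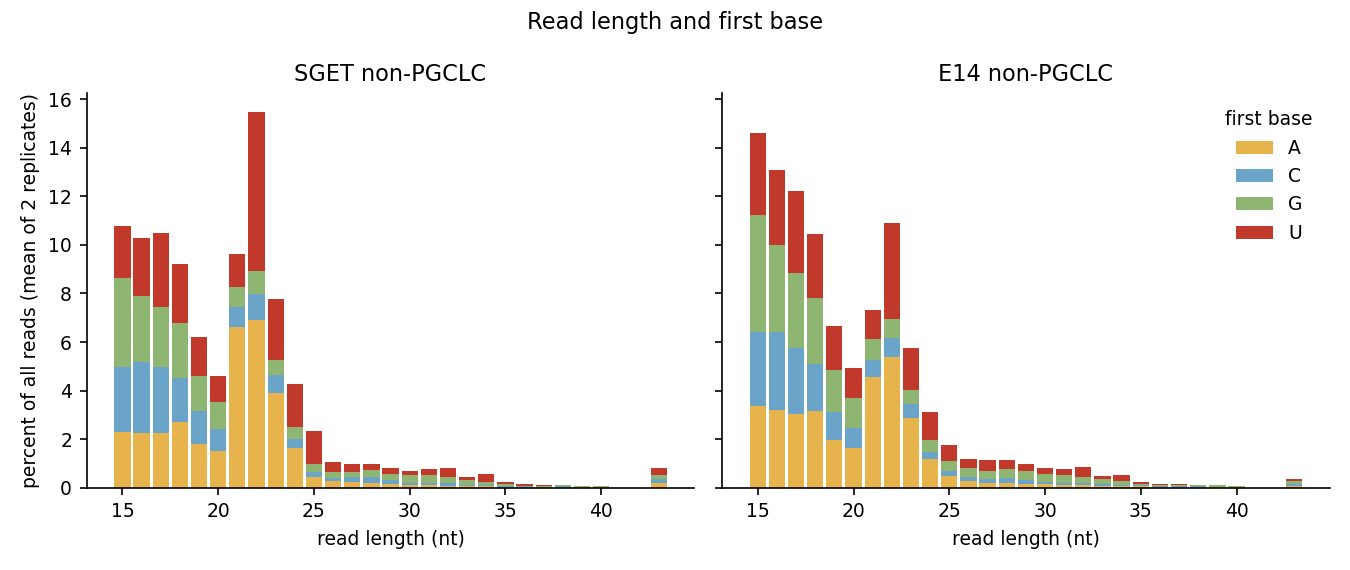
Read length from 15 to 43 nt (horizontal axis) against percent of all reads (vertical axis, mean of the 2 libraries) in SGET and E14 non-PGCLC, coloured by first base. The 22 nt bar is the tallest in SGET and the 15 nt bar in E14, and both have a small bar at 43 nt, the longest length, that is higher in SGET.

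Of 108 classes of read length and first base, 2 (1.85%) differed, both higher in SGET. Reads of 25 nt with a 5′ U took 1.22% and 1.53% of all reads in SGET and 0.649% and 0.684% in E14 (log2 change 1.04 ± 0.19, SE, edgeR adjusted p = 0.00966). The 25-nt form of Mir182-5p made up 71.6% and 71.7% of this class in SGET and 49.9% and 36.7% in E14. Without it the class took 0.346% and 0.433% of reads in SGET and 0.325% and 0.433% in E14, so that the groups overlapped. Within Mir182-5p the 25-nt form took 52.6% and 53.8% of reads in SGET and 43.4% and 41.7% in E14.

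Reads of 43 nt with a 5′ U took 0.339% and 0.249% in SGET and 0.131% and 0.0998% in E14 (log2 change 1.35 ± 0.31, SE, edgeR adjusted p = 0.0322). A length of 43 nt is the longest in the files, so these reads are the starts of RNAs of 43 nt or more. Annotated C/D box snoRNAs took 45.7% and 33.4% of them in SGET and 35.5% and 30.8% in E14. The most frequent such read is the 5′ end of Snord49a (chr11:62603450-62603521, + strand), shown with its C box, the motif TGATGA that marks this class of RNA, in capitals.
Snord49a read: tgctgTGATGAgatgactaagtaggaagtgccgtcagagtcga

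That read was counted 11252 and 3917 times in SGET and 1511 and 1353 times in E14. TGATGA within the first 14 bases, on the strand of the read, was found in 81.6% and 62.3% of the 43-nt 5′ U reads in SGET and 63.8% and 60.0% in E14, and in 72.4%, 50.3%, 48.5% and 43.8% of the 43-nt reads with another first base in the same 4 libraries. Without E14 replicate 1 or replicate 2 neither class was called (edgeR adjusted p = 0.112 and 0.0978 for 25 nt, 0.112 and 0.629 for 43 nt), and the 43-nt class was also lost without SGET replicate 1 (edgeR adjusted p = 0.0894), with the replicate block (edgeR adjusted p = 0.0586), with only the 4 libraries compared (edgeR adjusted p = 0.0899) and with the 6 non-PGCLC libraries (edgeR adjusted p = 0.164).

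Among 289 annotated RNA genes other than miRNAs, 2 (0.692%) were called, both unnamed snoRNA genes near 0 in 1 of the groups compared. Gm26457 (chr1:63178677-63178754, + strand) stood at 53.0 and 135 RPM in SGET and at 0 and 0.0775 RPM in E14 non-PGCLC, from 10 and 7 distinct sequences in SGET (edgeR adjusted p = 0.0375). The mPGCLCs of E14 held 2.18 and 30.2 RPM of it. Gm23663 (chr11:119746401-119746480, + strand) stood at 0 and 0.102 RPM in SGET and 46.2 and 40.4 RPM in E14, where each library held 1 distinct sequence (edgeR adjusted p = 0.0139). The call of Gm26457 was lost without either E14 replicate or SGET replicate 2 (edgeR adjusted p = 0.0793, 0.116 and 0.166), with the replicate block (edgeR adjusted p = 0.0656) and with the 6 non-PGCLC libraries (edgeR adjusted p = 0.0712). That of Gm23663 was lost with only the 4 libraries compared (edgeR adjusted p = 0.162) and with the 6 non-PGCLC libraries (edgeR adjusted p = 0.0746). With reads of 20 nt or more only, Gm23663 was not among the genes tested, whereas Gm26457 kept its call (edgeR adjusted p = 0.0331). None of the 76 C/D box and 28 H/ACA box snoRNAs, 32 mitochondrial genes, 11 small nuclear RNAs, 4 ribosomal RNAs and 2 Y RNAs was called by edgeR, where 34 of the 289 genes had an unadjusted p under 0.05 and DESeq2 called 28.

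Reads without an exact match in the annotation made up 60.2% and 56.1% of all reads in SGET and 66.7% and 70.0% in E14. Among them, reads of 17 to 23 nt that end in CCA, as mature transfer RNAs do, took 5.21% and 5.12% of all reads in SGET and 4.45% and 3.92% in E14. They were 14.02% and 14.8% of the unmatched reads of those lengths in SGET and 11.5% and 9.82% in E14, beside 1.24% and 1.37% against 0.906% and 0.848% for reads that end in ACC. Cytoplasmic transfer RNA genes are not in the annotation used here.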

How the data were processed

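Small RNA (under 200 nt) was sequenced from Day 6 non-PGCLC and mPGCLC. The authors trimmed reads with cutadapt 3.2, removed the random adapter bases, mapped reads to GRCm38 with STAR 2.5.3a (versions per the labels' processing notes) and deposited raw counts, 1 per distinct read sequence of 15 to 43 nt. The counts were not corrected for amplification, so counting intervals cover counting error only.

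From the deposited counts, 18 to 26 nt reads were summed per mature arm by sense match to 1174 GENCODE M21 miRNA hairpins, with the first 18 bases exact and up to 2 later mismatches. Arms that shared at least 0.5 of the reads of the smaller one were merged. RefSeq named the mature arms of 1007 hairpins. Other reads were matched exactly to annotated RNA genes. Levels used total reads, which were 7421061 to 14404300 in the 4 libraries compared.

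Counts were tested with edgeR 4.0.16 in R 4.3.3 (quasi-likelihood, TMM, filterByExpr, 5 group means over all 10 libraries, Benjamini-Hochberg adjustment, threshold 0.05). Length classes used total reads without TMM. DESeq2 1.42.0 was an alternative, with other scalings, filters, sample sets, matching rules and left-out libraries. Shares were compared by exact permutation (scipy 1.17.1). Groups came from the labels. Named arms were the 10 largest rises and 10 largest falls at adjusted p under 0.05 with at least 10 RPM in the higher group and no overlap of replicates, every such arm of at least 1000 RPM, the 5 most abundant SGET arms and the most abundant arm of each of 22 lists. The libraries, arms and lists were chosen with earlier results of these data known.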

Additional observations from a re-analysis of the deposited data

Results flagged for a closer look

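A GC-rich fragment outside the tested features, with no match to an annotated transcript, stood apart in E14. It was chosen after the data were seen, by a run of bases that its frequent reads share. Reads holding it were at 4298 and 9837 RPM in E14 non-PGCLC, with a mean of 7067 RPM, and at 92.8 and 351 RPM in SGET, 178 and 75.0 RPM in BG5 non-PGCLC, 1630 and 1839 RPM in E14 mPGCLC and 53.9 and 23.3 RPM in BG5 mPGCLC. All 4 E14 libraries lay above the 6 others. In E14 non-PGCLC it came in 357 and 722 distinct sequences and took 23.4% and 41.5% of the 26 to 29 nt reads with a 5′ U, against 0.570% and 1.11% in SGET. Without it, that class took 1.01% and 1.43% of all reads in SGET and 0.971% and 1.003% in E14. Its origin was not tested.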

How the results depend on the processing

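None of the 26 arms called between SGET and E14 changed direction in the 16 alternatives, and 6 were past the threshold in all of them: Mir291b-5p, the Mir669a group 5p, Mir483-5p, Mir483-3p, Mirlet7d-5p and Mir199-3p. The 26 became 78 with DESeq2, 9 with only the 4 libraries compared and 8 with the 6 non-PGCLC libraries. Leaving out 1 library gave 29 to 55, the most without SGET replicate 1, and 14 of the 26 lost their call in at least 1 such fit. Matching with 1 mismatch in the first 18 bases, chosen after seeing the data, gave 29. The 105 arms called against BG5 became 175 with DESeq2, and 99 to 137 with 1 library left out. The 2 length classes became 7 with TMM, 6 with DESeq2, 8 with the 4 libraries and 1 with the 6, and 0 to 3 with 1 library left out. Without E14 replicate 1 or replicate 2, edgeR called 0 classes, with 21 and 3 at an unadjusted p under 0.05, where DESeq2 on all libraries called 6. The 2 annotated RNA genes became 28 with DESeq2, 7 without a filter, 1 with the 4 libraries and 1 to 5 with 1 library left out. With the 6 non-PGCLC libraries edgeR called 0, with 20 at an unadjusted p under 0.05. The cause of these changes was not tested. The share of miRNA arms was 10.7 percentage points higher in SGET, 8.16 to 13.3 with 1 library left out and 0.472 when each distinct sequence counted once. That of the miR-290 cluster was 3.95 points higher, 1.87 to 6.03 with 1 library left out and -6.14 as a share of miRNA arm reads.

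Replicate numbers are shared between groups. Between SGET and E14 non-PGCLC they name libraries of different lines, whereas E14 and BG5 each have mPGCLC and non-PGCLC libraries with the same numbers. With the replicate number as a block, 35 arms were called against E14, 115 against BG5, 1 length class (25 nt) and 1 annotated RNA gene (Gm23663). Deviations of same-numbered SGET and E14 libraries correlated at -0.02 over arms, -0.41 over length classes and 0.02 over annotated RNA genes.

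Depth and the number of distinct sequences limit the arms with few reads, and a count of 0 does not show that an arm is absent.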
